A study of Mus musculus with 9 samples.

Results

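The guanylate-binding protein (GBP) and immunity-related GTPase (IRG) genes Gbp2, Gbp3, Gbp4, Gbp5, Gbp6, Gbp7, Gbp8, Gbp9, Igtp and Irgm1 were described in activated mouse regulatory T cells (Tregs) with and without Ezh2. These 10 genes were chosen by symbol, and 8 of them had a row among the 43432 rows of the count table; Gbp5 and Gbp6 had none and were not analysed here. RNA sequencing covered 4 Ezh2-deficient and 5 WT cultures. Both groups carried Foxp3-Cre-GFP and R26-LSL-RFP on C57BL/6, so Cre was driven by Foxp3 in WT cells too. Ezh2-deficient cells were Ezh2-fl/fl. WT cells were Ezh2-+/+, apart from WT replicate 1, which was Ezh2-fl/+. In every culture CD62L-high Tregs had been sorted, stimulated with anti-CD3/anti-CD28 microbeads and kept with 2000 U/ml IL-2, and RNA was taken on day 4. The design text calls the samples biological replicates, the labels do not tie them to individual animals, and the sources used here give no animal ages.

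GBPs are large GTPases, and IRGs smaller ones, that are made in response to interferons, mainly interferon-gamma. In mouse cells infected with bacteria or parasites that live inside vacuoles, effector GBPs and IRGs gather on the vacuole membrane and help to break it, and some GBPs also help bacterial products to reach inflammasomes. Igtp (also called Irgm3) and Irgm1 are regulatory IRGs, which sit on the cell's own membranes and keep effector IRGs inactive there. Ezh2 carries the enzyme activity of Polycomb repressive complex 2, a writer of the repressive histone mark H3K27 methylation. No interferon was among the culture additions that the labels list.

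Promoter sequences show what members of the family share beside their protein type, and they are given for the measured members whose window held the motif upstream of annotated exons or within the first bases of one. RefSeq promoters of GRCm38.p6, spanning 250 bases before to 50 bases after a gene's start, were found for 6 of the 10 genes; Gbp4, Gbp6, Gbp8 and Gbp9 had no entry. These 6 genes (Gbp2, Gbp3, Gbp5, Gbp7, Igtp and Irgm1) had 7 promoter entries, and 1 entry of each gene held GAAA followed, after any 2 bases, by GAAA again, the core of the interferon-stimulated response element (ISRE), on one strand or the other, against 3.44% of 32851 promoters of the same length; the second entry of Gbp3 held no match. The letters TTCNNNGAA, the core of the gamma-activated site (GAS), were in the promoters of 3 genes (Gbp5, Gbp7 and Igtp), against 8.3% of all promoters. No GAS match overlapped an ISRE match in these genes. The stretches of 60 bases below are on the plus strand, which is the genes' own strand, and capitals mark the ISRE core:
Gbp2, chr3:142620564-142620623: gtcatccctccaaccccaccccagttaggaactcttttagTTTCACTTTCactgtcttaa
Gbp3, chr3:142559965-142560024: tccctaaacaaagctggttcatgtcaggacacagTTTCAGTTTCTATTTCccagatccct
Gbp7, chr3:142530243-142530302: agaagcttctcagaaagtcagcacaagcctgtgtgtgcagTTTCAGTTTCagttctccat
Igtp, chr11:58199482-58199541: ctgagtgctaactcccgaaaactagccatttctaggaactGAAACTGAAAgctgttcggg
Counted from the RefSeq start, the core began 59 bases before the start of Gbp2, 53 before that of Gbp7 and 34 before that of Igtp. Gbp3 held a pair of overlapping matches, beginning 45 and 39 bases before its RefSeq start. The gene positions given below come from another annotation, GENCODE, which starts Gbp2 earlier. By GENCODE, 22 of the 60 bases printed for Gbp2 lie in an annotated exon. Irgm1, whose window lies in a GENCODE exon and is not printed, held a pair as well, beginning 30 and 24 bases before its RefSeq start. A match of letters is a description and was not tested as a binding site.

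The targeted gene was measured first. Ezh2 was at 153, 167, 164 and 159 CPM (library-size-normalised counts, with trimmed-mean scaling factors) in Ezh2-deficient libraries, against 268, 332, 288, 234 and 360 CPM in WT libraries. The groups did not overlap, and the log2 fold change, here and below Ezh2-deficient over WT, was -0.88 (standard error 0.11, adjusted p = 0.0003628). A count per gene also holds reads from exons outside the deleted ones. Libraries held 33718125 to 62201921 counts in Ezh2-deficient and 32469450 to 59796319 in WT cultures. All adjusted p values of genes come from edgeR's two-sided quasi-likelihood test with Benjamini-Hochberg adjustment over 13685 genes, and a gene is called at an adjusted p under 0.05. The Treg markers Foxp3 and Lrrc32 were higher (log2 fold change 0.30 and 0.43, adjusted p = 0.0313 and 0.007457), and the other 8 of 10 Treg markers did not pass. Of all tested genes, 13.1% were higher and 8.8% lower.

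Of the 8 measured GBP and IRG genes, 4 were higher in Ezh2-deficient Tregs (Gbp4, Gbp8, Gbp9 and Gbp7) and none was lower, against 13.1% of all tested genes higher and 8.8% lower (21.9% in either direction). The remaining 4 (Gbp2, Gbp3, Igtp and Irgm1) did not pass, and the count of members at an unadjusted p under 0.05 was 4 as well. All 8 passed the filter on low counts. Their median log2 fold change was 0.63, beside 0.003 over all tested genes. The 4 called members were also those whose groups did not overlap, which held for 21.2% of all tested genes. A bulk measurement cannot tell fewer cells with a transcript from less of it per cell.

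**Figure D1:**
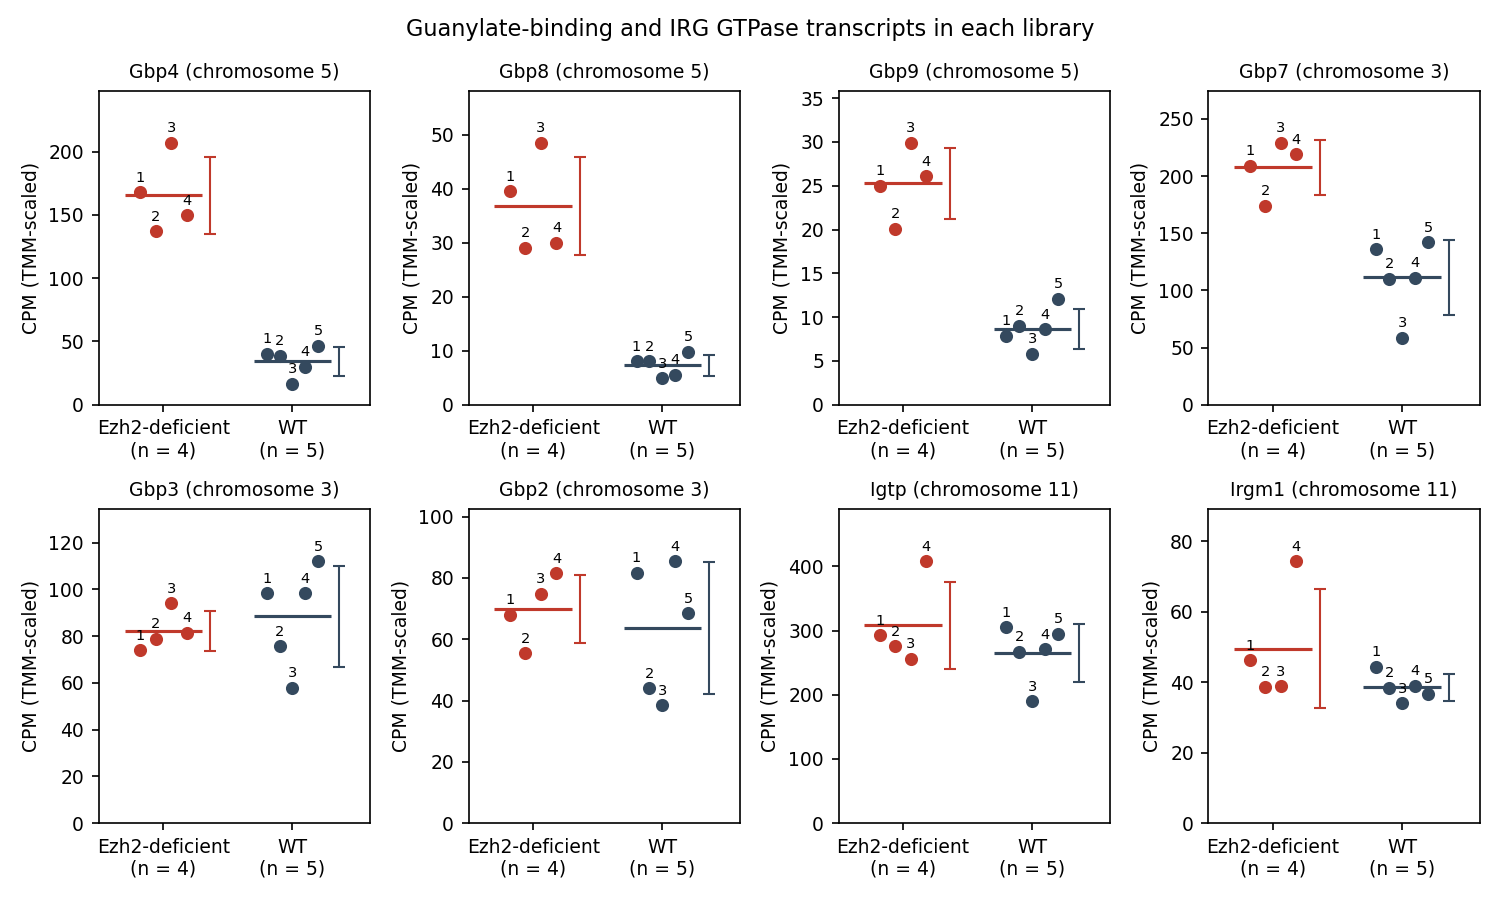
Each panel plots 1 gene's CPM (vertical axis, starting at 0) in 4 Ezh2-deficient libraries (red, left) and 5 WT libraries (blue-grey, right), with replicate numbers at the points, the mean as a line and the SD as a bar. In the panels of Gbp4, Gbp8, Gbp9 and Gbp7 every Ezh2-deficient point lies above every WT point, whereas the points of Gbp3, Gbp2, Igtp and Irgm1 overlap.

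The largest differences lay in the chromosome 5 cluster. Gbp4 (ENSMUSG00000079363, chr5:105115767-105139586, minus strand, GRCm38) encodes a GBP. It was at 168, 137, 207 and 150 CPM in Ezh2-deficient libraries, against 40.3, 38.6, 16.6, 30.0 and 46.5 CPM in WT libraries. The mean was 165 ± 30.4 CPM (SD) over the 4 Ezh2-deficient libraries and 34.4 ± 11.6 CPM over the 5 WT libraries, 4.81-fold apart, with a log2 fold change of 2.26 (standard error 0.26, 95% interval 1.68 to 2.85, adjusted p = 0.0004454). The lowest Ezh2-deficient library was thus well above the highest WT library, and within WT the libraries spread more widely relative to their mean than within the Ezh2-deficient group.

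Gbp8 (ENSMUSG00000034438, chr5:105014150-105139540, minus strand) belongs to the same family and shares its annotated start region with Gbp4 and Gbp9. It was at 39.5, 29.1, 48.5 and 30.0 CPM in Ezh2-deficient libraries, against 8.0, 8.05, 4.85, 5.58 and 9.82 CPM in WT libraries. Ezh2-deficient libraries averaged 36.8 ± 9.13 CPM (SD, n = 4), 5.07-fold above the WT mean of 7.26 ± 2.02 CPM (SD, n = 5), and the log2 fold change was 2.33 (standard error 0.22, 95% interval 1.86 to 2.81, adjusted p = 6.257e-05). Gbp8 had the smallest p of the 8 genes, at rank 47 of all genes tested, and its groups were separate.

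Gbp9 (ENSMUSG00000029298, chr5:105077630-105139539, minus strand) had the lowest level per kilobase of exon of the 8 genes. Its level was 25.0, 20.1, 29.9 and 26.1 CPM in Ezh2-deficient libraries, against 7.87, 9.01, 5.82, 8.60 and 12.1 CPM in WT libraries. The Ezh2-deficient mean of 25.3 ± 4.03 CPM (SD, n = 4) was 2.91-fold the WT mean of 8.68 ± 2.28 CPM (SD, n = 5), which gave a log2 fold change of 1.54 (standard error 0.19, 95% interval 1.14 to 1.94, adjusted p = 0.0002287). Its groups were separate too, with a smaller difference than for Gbp4 or Gbp8.

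The counting of these 3 genes may share reads. Exons of Gbp4, Gbp8 and Gbp9 overlap on the same strand over 0.814%, 1.77% and 1.16% of each gene's exon bases, and 7.7%, 18.1% and 8.05% of their 50-base stretches also occur in another annotated gene, most often Gbp11 for Gbp4 and Gbp8. Gbp11 held 13 to 36 counts in Ezh2-deficient libraries and 1 to 4 in WT libraries and was not tested. Summed over Gbp8, Gbp9 and Gbp4, so that a read moved between them changes nothing, levels were 232, 186, 285 and 206 CPM in Ezh2-deficient libraries and 56.1, 55.7, 27.2, 44.2 and 68.5 CPM in WT libraries, and the sums were separate as well.

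Gbp7 was the member of the chromosome 3 cluster that passed the test. Gbp7 (ENSMUSG00000040253, chr3:142530342-142550149, plus strand) is known in mouse macrophages for helping to assemble the NADPH oxidase. It was at 209, 174, 229 and 219 CPM in Ezh2-deficient libraries, against 136, 110, 58.5, 111 and 142 CPM in WT libraries. The Ezh2-deficient mean of 208 ± 23.7 CPM (SD, n = 4) was 1.86-fold the WT mean of 111 ± 32.9 CPM (SD, n = 5), and the log2 fold change was 0.90 (standard error 0.21, 95% interval 0.42 to 1.37, adjusted p = 0.01455). The gap between the groups was narrow, and the call was the least stable of the 4: without Ezh2-deficient replicate 3 the log2 fold change was 0.83 (adjusted p = 0.05041). Of its 50-base stretches 12.7% occur in another gene, mostly the overlapping pseudogene Gm43802.

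Gbp2 and Gbp3, its neighbours, did not pass. Gbp2 (ENSMUSG00000028270, chr3:142620602-142638008, plus strand), a prenylated GBP that in mouse macrophages promotes caspase-11 and Aim2 inflammasome activity, was at 68.0, 55.5, 74.9 and 81.5 CPM in Ezh2-deficient libraries, against 81.7, 44.1, 38.5, 85.4 and 68.4 CPM in WT libraries. The log2 fold change was 0.14 (standard error 0.24, adjusted p = 0.7141), and its 95% interval of -0.39 to 0.66 leaves room for a difference in either direction. Of the WT libraries, 2 lay above and 2 below every Ezh2-deficient library. Gbp3 (ENSMUSG00000028268, chr3:142560026-142573209, plus strand) was at 73.9, 78.9, 94.1 and 81.5 CPM in Ezh2-deficient libraries, against 98.3, 75.8, 57.9, 98.4 and 112 CPM in WT libraries, with a log2 fold change of -0.11 (standard error 0.17, 95% interval -0.47 to 0.25, adjusted p = 0.6688). The summed level of Gbp7, Gbp3 and Gbp2 was 351, 309, 398 and 382 CPM in Ezh2-deficient libraries and 315, 230, 155, 295 and 322 CPM in WT libraries, and this sum, with a log2 fold change of 0.45, missed the threshold (adjusted p = 0.1064).

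The regulatory IRG genes on chromosome 11 did not pass either. Igtp (ENSMUSG00000078853, chr11:58199556-58207591, plus strand) was at 293, 276, 256 and 408 CPM in Ezh2-deficient libraries, against 305, 267, 190, 271 and 295 CPM in WT libraries. Its log2 fold change was 0.21 (standard error 0.16, 95% interval -0.13 to 0.55, adjusted p = 0.3431), and 3 of 4 Ezh2-deficient libraries lay inside the WT range. Irgm1 (ENSMUSG00000046879, chr11:48861968-48871683, minus strand), which mice need to resist mycobacteria, was at 46.2, 38.7, 38.9 and 74.3 CPM in Ezh2-deficient libraries, against 44.4, 38.5, 34.1, 39.0 and 36.7 CPM in WT libraries. The log2 fold change was 0.36 (standard error 0.18, 95% interval -0.03 to 0.75, adjusted p = 0.1597). In both genes Ezh2-deficient replicate 4 stood highest, and without it the log2 fold changes were the lowest of the single-library omissions, at 0.03 for Igtp and 0.08 for Irgm1.

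**Figure D2:**
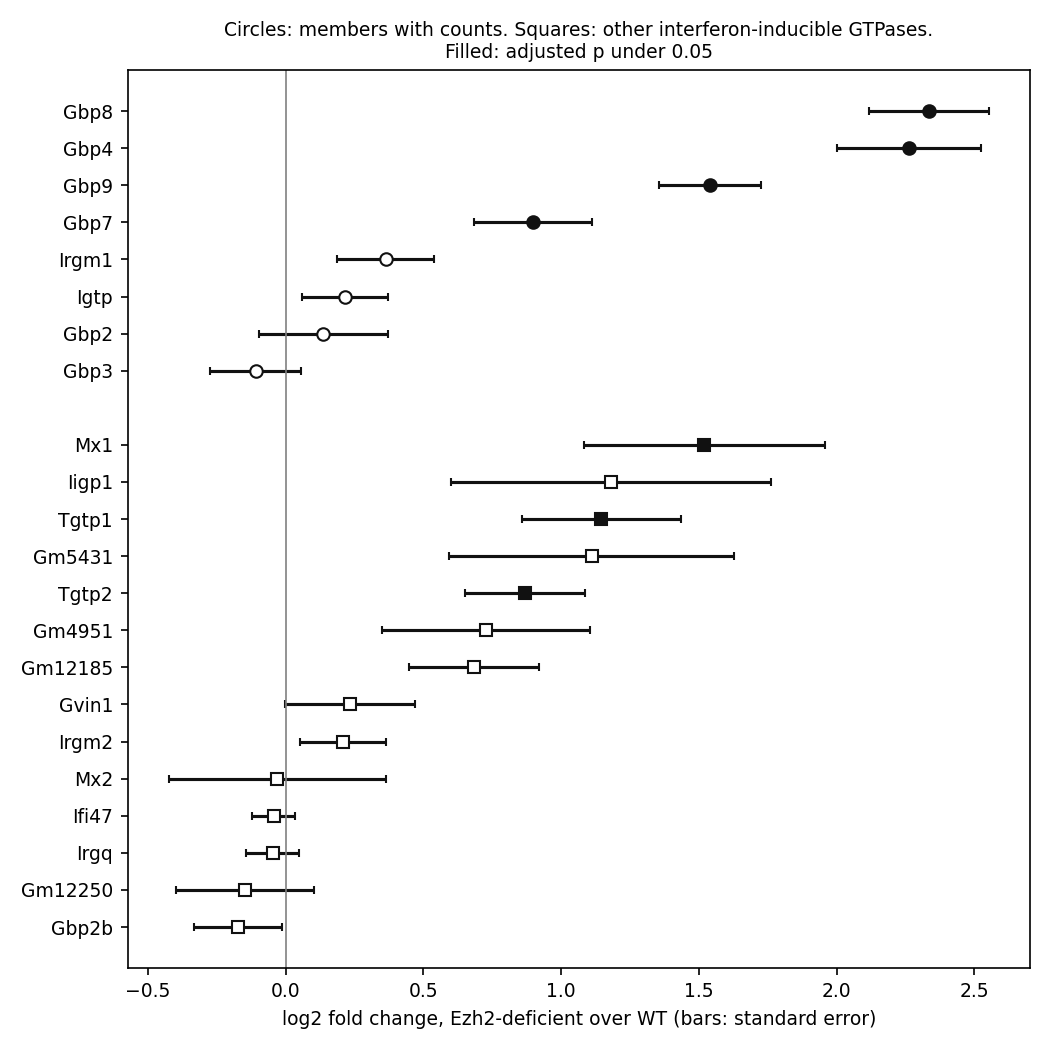
The horizontal axis is the log2 fold change, Ezh2-deficient (n = 4) over WT (n = 5), with bars for the standard error; circles are the 8 measured members, squares 14 other interferon-inducible GTPase genes, and filled symbols had an adjusted p under 0.05. Gbp8, Gbp4, Gbp9 and Gbp7 are the filled circles, from 2.33 down to 0.90, and Tgtp2, Tgtp1 and Mx1 the filled squares.

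The difference between members was tested through their ratio within each library, which does not depend on library size. All 28 pairs were compared, a choice made after the values were seen, with a two-sided exact permutation test whose smallest possible p over 126 assignments was 0.007937. The ratio of Gbp4 to Gbp3 was higher by 2.41 on the log2 scale and that of Gbp8 to Gbp3 by 2.43 in Ezh2-deficient libraries (each exact p = 0.007937, adjusted over the pairs 0.01389). Within the chromosome 3 cluster the ratio of Gbp7 to Gbp3 was higher by 1.03 (exact p = 0.007937, adjusted 0.01389) and that of Gbp7 to Gbp2 by 0.76 (exact p = 0.01587, adjusted 0.02222). In each of these pairs the ratios of the groups did not overlap. The ratios come from the same counts as the calls above and are no independent support for them.

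Within the chromosome 5 cluster the ratio of Gbp8 to Gbp9 was higher by 0.79 in Ezh2-deficient libraries (exact permutation p = 0.007937, adjusted 0.01389). The ratio of Gbp8 to Gbp4 differed by 0.02 (exact p = 0.881, adjusted 0.9136), which does not show that they changed alike. For Irgm1 to Igtp the difference was 0.10 (exact p = 0.3651, adjusted 0.4089). In all, 20 of the 28 pairs had an adjusted p under 0.05: every pair of a called with an uncalled member other than Gbp7 with Irgm1, and every pair of called members other than Gbp8 with Gbp4.

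**Figure D3:**
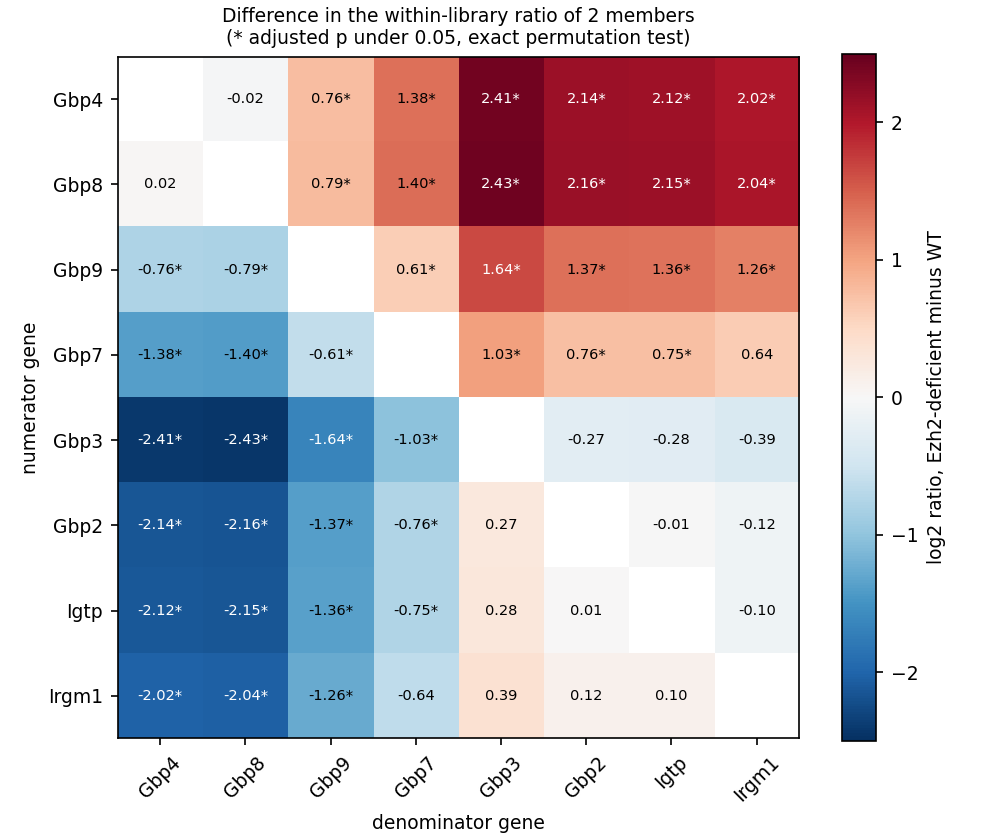
Each cell gives the log2 ratio of the row gene to the column gene, mean of 4 Ezh2-deficient minus mean of 5 WT libraries, from blue (lower) to red (higher), with a star where the adjusted p of the exact permutation test was under 0.05. The upper rows, Gbp4 and Gbp8, are red against all members but each other, and the block of Gbp3, Gbp2, Igtp and Irgm1 at the lower right is pale and carries no star.

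Levels of different genes were compared per kilobase of exon (RPKM, that is CPM divided by exon length in kilobases). In Ezh2-deficient Tregs Igtp led at 152 ± 33.7 RPKM (SD, n = 4), followed by Gbp7 at 37.0 ± 4.21, Gbp2 at 27.8 ± 4.42, Gbp3 at 25.1 ± 2.64, Gbp4 at 22.1 ± 4.05, Gbp8 at 10.7 ± 2.65, Irgm1 at 8.52 ± 2.91 and Gbp9 at 4.89 ± 0.779 RPKM. In WT Tregs Igtp led at 131 ± 22.2 RPKM (SD, n = 5), followed by Gbp3 at 27.1 ± 6.58, Gbp2 at 25.3 ± 8.51, Gbp7 at 19.9 ± 5.85, Irgm1 at 6.63 ± 0.648, Gbp4 at 4.59 ± 1.55, Gbp8 at 2.11 ± 0.587 and Gbp9 at 1.68 ± 0.440 RPKM. Igtp stood apart in both groups. In Ezh2-deficient libraries the ranges of neighbours overlapped from Gbp7 through Gbp4 and between Gbp8 and Irgm1, and were separate between Gbp4 and Gbp8 and between Irgm1 and Gbp9. In WT libraries they overlapped among Gbp3, Gbp2 and Gbp7 and from Irgm1 through Gbp9, and were separate between Gbp7 and Irgm1. With the length of the longest transcript instead, Gbp4 was at 36.4 RPKM in Ezh2-deficient and 7.58 RPKM in WT Tregs, Irgm1 at 12.9 and 10.1 RPKM, and Gbp3 at 30.6 and 33.0 RPKM. In Ezh2-deficient Tregs the mean of Gbp4 then lay above those of Gbp3 and Gbp2, that of Gbp3 above Gbp2, and that of Irgm1 above Gbp8; the order of means in WT Tregs did not change.

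The members' relative amounts were also set against each other. Of the summed RPKM of Gbp2, Gbp3, Gbp4, Gbp7, Gbp8 and Gbp9, a total that leaves out Gbp2b and Gbp11, Gbp4 made up 17.2% in Ezh2-deficient libraries, against 5.66% in WT libraries, and Gbp8 made up 8.32% against 2.68%. Gbp3 took 19.8% in Ezh2-deficient and 33.9% in WT libraries, Gbp2 took 21.8% and 31.1%, Gbp7 took 29.0% and 24.5%, and Gbp9 took 3.82% and 2.13%. Shares add up to a fixed total, so the smaller shares of Gbp2 and Gbp3 are no fall in their levels.

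Libraries also varied together within a group. WT replicate 3 was the lowest WT library for all 8 members, and WT replicate 5 was the highest for 5. Among Ezh2-deficient libraries, replicate 2 was the lowest for 6 members, replicate 3 the highest for 5 and replicate 4 the highest for 3. Summed CPM of the 8 members was 923, 810, 977 and 1070 in Ezh2-deficient libraries, against 721, 591, 407, 650 and 722 in WT libraries, and these sums did not overlap.

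Some libraries also differed in transcripts of other programmes. A hypoxia-response score split the libraries into 5 high (Ezh2-deficient replicates 1 and 4, WT replicates 1, 2 and 4) and 4 low ones, and none of its 28 genes was called between the groups. Cd8a, a CD8 T cell marker, was at 28.3, 0.936, 0.361 and 79.9 CPM in Ezh2-deficient libraries and at 35.8, 35.9, 1.98, 97.6 and 41.1 CPM in WT libraries; the CD8 and NK cell markers summed to 37.3 to 240.4 CPM and 41.8 to 210.8 CPM, 0 of the 8 tested were called, and Ncr1 was at 0. Within the high-score libraries the log2 fold changes of Gbp8, Gbp4, Gbp9 and Gbp7 were 2.26, 2.13, 1.59 and 0.84, and all 4 passed. Within the low-score libraries they were 2.37, 2.41, 1.45 and 0.98, and Gbp8 alone passed (adjusted p = 0.03264), in a comparison of 2 libraries a group. With Cd8a as a covariate 6 members passed, Igtp (0.39, adjusted p = 0.01581) and Irgm1 (0.51, adjusted p = 0.009914) among them. Without the library of highest Cd8a in each group 3 passed, and Gbp7 did not (0.87, adjusted p = 0.0898). The part of these programmes in the differences was not tested.

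Markers of myeloid cells, which make GBPs in abundance when stimulated with interferon, summed to 23.1 to 30.6 CPM in Ezh2-deficient and 11.5 to 19.5 CPM in WT libraries. Of 12 markers 3 were testable and 2 of these were higher, Adgre1 (3.23 ± 0.265 CPM, n = 4, and 0.957 ± 0.499 CPM, n = 5; adjusted p = 0.005146) and Itgam (21.2 ± 3.47 and 12.2 ± 2.95 CPM; adjusted p = 0.008175). Cd68 was at 2.73 and 2.67 CPM and did not pass. Of the 9 markers not tested, Csf3r and S100a9 were at 0 in all libraries, Lyz2 averaged 0.0685 and 0.0215 CPM and Itgax 0.101 and 0.0408 CPM, and Cd14 had 0 to 0.0282 CPM in Ezh2-deficient and 0.102 to 0.476 CPM in WT libraries. Of 7 B cell markers tested, Cd79a and Ighm were lower, with sums of the list of 424.5 to 574.5 CPM in Ezh2-deficient and 562.9 to 854.5 CPM in WT libraries. Hba-a1 was higher among 2 erythroid markers tested, whose list summed to 5.41 to 19.4 and 2.17 to 7.74 CPM, and Pdgfrb among 5 stromal and endothelial markers, whose list summed to 214.1 to 261.1 and 188.7 to 239.6 CPM. Of all tested genes, 13.1% were higher and 8.8% lower. The part of these other cell types in the GBP differences was not tested.

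Other interferon-inducible GTPases were described next, among them Mx1 and Mx2, which belong to neither the GBP nor the IRG family. Of 23 listed genes, 16 had a row and 14 were tested. Of these 14, 3 (21.4%) were higher and 0 lower, against 13.1% and 8.8% of all tested genes. The median log2 fold change of the 14 was 0.46. Tgtp2 and Tgtp1, close copies that encode the effector IRG Irgb6, were at 9.67 ± 1.58 and 16.1 ± 1.36 CPM in Ezh2-deficient (SD, n = 4) and 5.29 ± 1.41 and 7.25 ± 3.01 CPM in WT libraries (SD, n = 5), with log2 fold changes of 0.87 (adjusted p = 0.01499) and 1.15 (adjusted p = 0.01677). Mx1, a dynamin-like GTPase, was at low levels of 0.915 ± 0.259 and 0.323 ± 0.169 CPM, with a log2 fold change of 1.52 (adjusted p = 0.02731). Gm12185 did not pass (0.68, adjusted p = 0.05492). In all, 11 of the 14 did not pass, and the counts of Tgtp1 and Tgtp2 may share reads.

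Gbp2b, which lies between Gbp3 and Gbp2, was at 81.8, 67.8, 82.4 and 93.1 CPM in Ezh2-deficient libraries, against 113, 75.2, 65.4, 111 and 92.9 CPM in WT libraries, and did not pass. Irgm2, the IRG regulator whose exons overlap those of Igtp, was at 76.8, 53.9, 64.0 and 80.8 CPM, against 59.8, 46.5, 48.9, 68.0 and 74.8 CPM in WT libraries, and did not pass either. Both groups overlapped in each gene, as for Gbp2, Gbp3, Igtp and Irgm1.

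The row Gm43302, whose annotated position covers that of Gbp6, was looked at after the values were known. It was at 7.53, 4.04, 5.03 and 8.88 CPM in Ezh2-deficient libraries, against 3.33, 2.96, 1.46, 4.63 and 2.19 CPM in WT libraries, with a log2 fold change of 1.13 (adjusted p = 0.0260). Its groups overlapped, and it lost the call in 5 of 22 alternative analyses, among them leaving out Ezh2-deficient replicate 1 (adjusted p = 0.07914) or 4 (0.08712) or WT replicate 2 (0.05339) or 5 (0.05278). Since 65% of the 50-base stretches of Gbp6 also occur in Gm43302, the row gives no value for Gbp6.

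Tested genes next to the clusters were taken 5 to a side, with those lying inside. Beside the chromosome 5 cluster, 5 of 10 neighbours were higher and 0 lower, against 13.1% and 8.8% of all tested genes. The nearest, Abcg3, which encodes an ABC transporter and lies 31432 bases away, was at 20.8 ± 3.27 CPM in Ezh2-deficient libraries (SD, n = 4) and 7.49 ± 1.74 CPM in WT libraries (SD, n = 5), with a log2 fold change of 1.47 (adjusted p = 0.0002005). The other 4 were Gm43302, C230066G23Rik (1.37, lying within the span of Lrrc8c), D930016D06Rik (0.54) and Lrrc8d (0.36). At the chromosome 3 cluster 1 of 11 was higher (Lmo4) and 1 lower (Metap1), around Igtp 0 of 11 were higher and 2 lower, and around Irgm1 0 of 10 were higher and 1 lower. The chromosome 3 neighbours lie up to 4.04 Mb away, those of chromosome 5 up to 0.56 Mb.

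**Figure D4:**
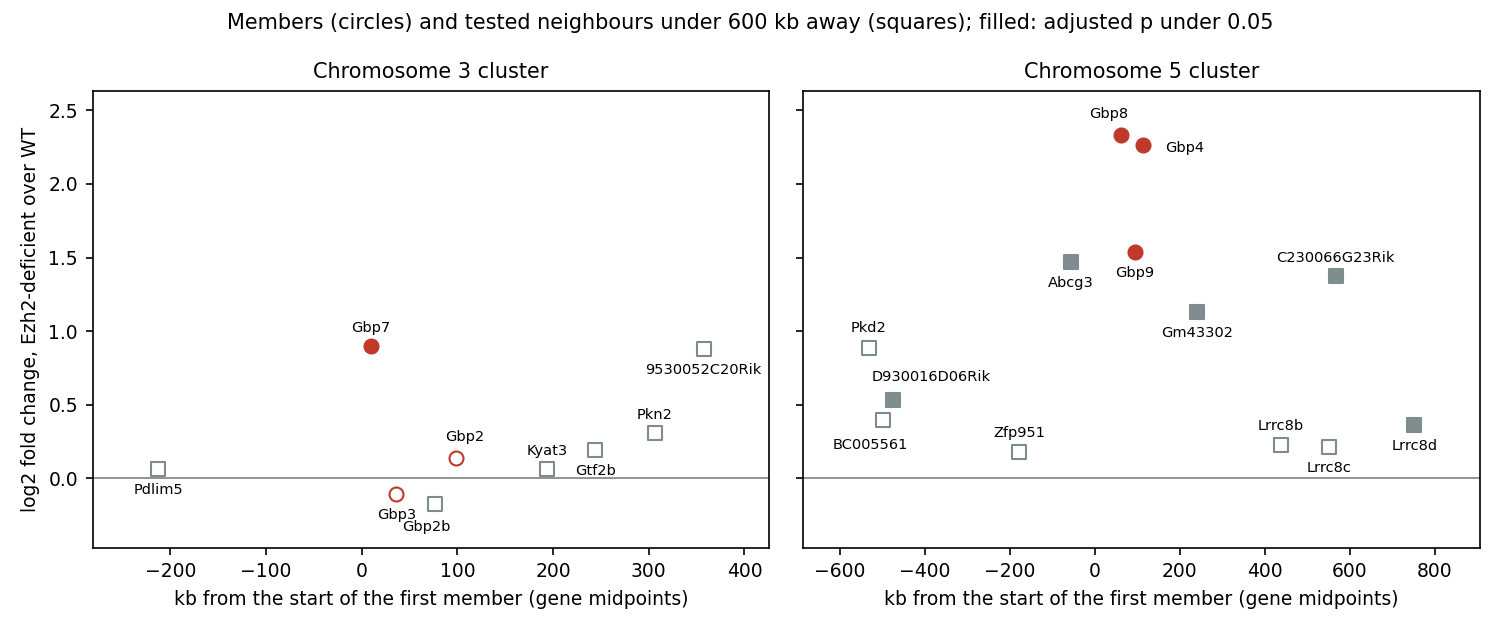
The vertical axis is the log2 fold change, Ezh2-deficient over WT, and the horizontal axis the distance of a gene's midpoint in kb from the start of the first member of the chromosome 3 (left) or chromosome 5 (right) cluster; red circles are members, grey squares tested neighbours under 600 kb away, and filled symbols had an adjusted p under 0.05. On the right, Gbp8, Gbp4 and Gbp9 stand at 1.54 or above with the filled squares Abcg3, Gm43302, C230066G23Rik, D930016D06Rik and Lrrc8d around them, and on the left Gbp7 is the 1 filled symbol.

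Genes that sense and relay interferon were partly higher. Of all tested genes, 13.1% were higher and 8.8% lower. Of 19 tested genes of this list, 6 (31.6%) were higher and 0 lower, with a median log2 fold change of 0.27. They included the receptor chains Ifnar1 (245 ± 17.2 CPM, n = 4, and 191 ± 13.9 CPM, n = 5; log2 fold change 0.36, adjusted p = 0.007059) and Ifngr1 (862 ± 47.6 and 576 ± 118 CPM; 0.58, adjusted p = 0.01074), the factor Irf2 (0.35, adjusted p = 0.0144), and Usp18, which dampens type I interferon signalling (0.96, adjusted p = 0.0283).

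Other interferon-induced genes were mixed. Of all tested genes, 13.1% were higher and 8.8% lower. Among 41 tested genes of the type I interferon response, 12 (29.3%) were higher and 1 lower, with a median of 0.41. Parp12 (18.02 ± 3.70 CPM, n = 4, and 5.64 ± 1.62 CPM, n = 5; log2 fold change 1.67, adjusted p = 0.000359) and the RNA sensor Ifih1 (0.94, adjusted p = 0.000576) had the smallest adjusted p values, and Trim30a (0.50) and Phf11b (0.71) the next by that measure. Among 25 other targets of interferon-gamma, 6 (24%) were higher and 4 lower, with a median of -0.01. Cd274, the gene of PD-L1, was at 72.7 ± 10.8 CPM in Ezh2-deficient libraries (SD, n = 4) and 40.7 ± 6.10 CPM in WT libraries (SD, n = 5), with a log2 fold change of 0.84 (adjusted p = 0.000909), and Nlrc5, the activator of MHC class I genes, was higher by 0.94 (adjusted p = 0.009346). Rnf213 was higher by 0.43 (adjusted p = 0.003999), and the chemokine gene Cxcl10 by 2.40 (adjusted p = 0.008124) with overlapping groups. Ly6c1 (1.861) and B2m (0.463) were higher as well. The 4 lower genes were Apol9b (log2 fold change -1.082), Ciita (-1.003), Tapbp (-0.363) and Psmb8 (-0.244). Of other genes of the MHC class I pathway, Tap1 (-0.011) and Tap2 (-0.179) did not pass, so this pathway was not raised as a whole.

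Genes that act with GBPs and IRGs were described as well. Of all tested genes, 13.1% were higher and 8.8% lower. The ATG8 lipidation machinery helps in mouse cells to direct IRGs and GBPs to vacuoles. A list of 22 genes held this machinery and other autophagy genes such as Ulk1, Becn1 and Pik3c3. Of the 22, 4 (18.2%) were higher and 0 lower, with a median of 0.11. The 4 were Atg12 (log2 fold change 0.49, adjusted p = 0.002317), Atg3 (0.47, adjusted p = 0.01213), Atg4c (0.68, adjusted p = 0.01426) and Gabarapl1 (0.36, adjusted p = 0.03276). Of 9 prenylation and isoprenoid genes, which supply the lipid anchor of Gbp2, 0 were higher and 1 lower, Fdps at 120 ± 31.5 CPM in Ezh2-deficient (SD, n = 4) and 170 ± 24.0 CPM in WT libraries (SD, n = 5; -0.50, adjusted p = 0.04924). Rce1 and Icmt did not pass. Of 11 inflammasome genes 1 (9.09%) was higher, Nlrp3, at 0.670 ± 0.120 and 0.241 ± 0.163 CPM (1.52, adjusted p = 0.04915), and Aim2, Casp1 and Gsdmd did not pass.

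The genes whose levels over the 9 libraries were most like those of a member were found by the root mean square difference of mean-centred log2 CPM, among genes outside the family. For Igtp, the member with the highest level per kilobase, they included Stxbp3 (0.08 log2 units), Dtx3l (0.10), Ccser2 (0.12) and Nt5e (0.12). For Gbp8, which has the smallest adjusted p, they were Eps8 (0.19), Sgk3 (0.20), an identifier without a symbol in the annotation (0.27), Tnfsf4 (0.27) and Gm53 (0.31). Eps8 averaged 12.1 CPM in Ezh2-deficient libraries, against 2.53 CPM in WT Tregs, a difference of the kind that the choice by likeness to Gbp8 fixes.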

How the data were processed

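The authors deposited raw counts for 43432 Ensembl gene identifiers in 9 libraries, with no normalization. Libraries were made with a stranded mRNA kit and sequenced on an Illumina instrument, per the labels' protocols. Per the submitters' processing notes the tools and builds include STAR and GRCm38. How reads were counted, on which strand and over which annotation is not given in the sources used here; counts of overlapping genes and of paralogues are therefore uncertain. Symbols, positions and exon lengths came from GENCODE M21, which held 98.0% of the identifiers, and promoters from RefSeq.

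Counts were filtered with edgeR's filterByExpr (13685 of 22839 genes with a count kept), given trimmed-mean (TMM) scaling factors, and tested with the robust quasi-likelihood test of edgeR 4.0.16 in R 4.3.3, with group as the only term; the script was tested on simulated data. The common biological coefficient of variation was 0.206. DESeq2 1.42.0, limma 3.58.1 (voom), other scalings and filters, covariates and single-library omissions were alternatives. Log2 CPM used a prior count of 2. No 2 libraries agreed within sampling noise (lowest chi-square per degree of freedom 21.93 over 36 pairs). P-values set the difference between groups against the spread between cultures, which the labels do not tie to individual animals. Reads carried no molecular identifiers.

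The members and gene lists were chosen with earlier results of these data known. Named genes were all members with every library value, from each list up to 4 genes, those of smallest adjusted p, 5 genes most like each of 2 members, and Ezh2; genes beyond these were added after their values were seen. Some genes that this rule takes in are not reported here.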

Additional observations from a re-analysis of the deposited data

How the results depend on the processing

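Over 23 alternatives, which include the summed counts of a gene's cluster, Gbp8 kept its call in all (log2 fold change 2.15 to 2.47). Gbp4 (2.06 to 2.44) and Gbp9 (1.40 to 1.69 by itself, 2.17 as the cluster sum) missed the threshold in 1 alternative only. That was the fit within the low hypoxia-response score libraries (adjusted p = 0.05979 and 0.08742), where 1 member was called and each group has 2 libraries. Gbp7 also missed it without the filter on low counts (0.88, adjusted p = 0.05325), without Ezh2-deficient replicate 3, without the libraries of highest Cd8a (chosen after seeing the data) and as a cluster sum. The call of Gbp2 and Gbp3 did not change under any alternative, and Igtp and Irgm1 gained it with Cd8a as a covariate. Other GTPase genes called higher numbered 5 with DESeq2, 5 with the hypoxia score and 6 with Cd8a as a covariate, 1 within the high and 0 within the low score libraries, and 1 to 4 when single libraries were left out (1 without Ezh2-deficient replicate 3). All genes called numbered 1764 within the high and 570 within the low score libraries, and 1972 to 3168 when single libraries were left out (1972 without Ezh2-deficient replicate 3). With replicate number as a replicate block, 4 members and 2751 genes were called. Same-numbered libraries correlated at 0.153, -0.083, 0.114 and 0.187, and no Ezh2-deficient library correlated best with the WT library of its own number. Whether the numbers pair the samples cannot be told from these correlations. Other scalings moved the median of all genes to at most -0.026. Depth limits Mx1, Nlrp3 and Gbp11, which had few counts. Fits within score groups hold fewer libraries; the cause of the other changes was not tested.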
